A study of Mus musculus with 10 samples.

Results

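Proteasome and translation initiation factor genes were examined for H3K4me3 in fully-grown germinal vesicle (GV) oocytes with and without the H3K4 methyltransferase SETD1B. Members were the genes on chromosomes 1 to 19 that label a 5 kb window of the deposited table with a name of *Psma*, *Psmb*, *Psmc*, *Psmd* or *Psme* and a digit, or *Eif* and a digit. The Argonaute genes once named *Eif2c* were left out. The rule gave 89 of the 23225 labelled autosomal genes, with 489 labelled windows among the 544879 windows of the table. They comprised 41 proteasome genes, 46 initiation factor genes and 2 genes that match by name alone. A further 5 matching genes on the sex chromosomes lay outside the rule. Each gene was represented by its top window, the labelled window with the highest mean H3K4me3 over all 6 libraries.

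*Setd1b* cKO oocytes were *Setd1b* floxed/floxed and *Gdf9*-Cre positive, and *Setd1b* WT oocytes were *Setd1b* floxed/floxed and *Gdf9*-Cre negative by their labels, so every labelled genotype carried the floxed alleles. All came from 21-day-old females, C57BL6 by the labels and C57BL/6OlaHsd by the methods. The methods of the study also allow, among the WT females, a *Gdf9*-Cre carrier with 1 undeleted *Setd1b* allele. *Gdf9*-Cre acts in the oocyte from early folliculogenesis, and each library was made from a pool of about 200 oocytes. H3K4me3 was profiled in 3 libraries per genotype (cKO replicates 1, 3 and 4, and WT replicates 1, 2 and 4) by ULI-nChIP-seq, in which micrococcal nuclease-digested native chromatin from few cells is immunoprecipitated, and 2 input libraries per genotype accompanied them. Values are enrichment-normalized RPKM, a linear scale on which the 40th and 99th percentiles of every library were set equal.

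The proteasome degrades ubiquitin-tagged proteins inside a 20S barrel of alpha and beta rings, which is capped by the 19S particle or by other activators. Eukaryotic initiation factors (eIFs) bring the initiator tRNA, the small ribosomal subunit and the capped mRNA together, and eIF2 and eIF4F are main points of control. Both sets of genes are used by nearly every cell and usually have CpG-rich promoters, the kind of promoter at which H3K4me3 is typically found. The growing oocyte makes and stores many mRNAs, and much of its later control of protein supply acts through translation and degradation.

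The H3K4me3 libraries held 10856015 to 32775874 reads in windows, and the top windows of members had 1 to 255 reads per library (median 69). Sampling noise is therefore large at a single window, and p-values measure the spread between these pools of oocytes. Libraries differed in enrichment: the reads at the 99th percentile were 3.47 and 3.88 times those at the 40th in cKO replicates 3 and 4, and 5.38 to 14.3 times in the other libraries. In *Setd1b* itself, the labelled window nearest its start fell from 8.47 in WT to 2.88 in cKO (limma adjusted *P* = 0.0124). The other 4 labelled windows differed by 0.101 to 0.377, and input at the first was 2.02 in cKO and 2.11 in WT. Whether the floxed DNA itself was lost there was not tested. H3K4me3 is a mark and not expression. Oocyte markers had means over the 6 libraries of 4.24 to 6.35 at their top windows. Granulosa cell markers ranged from 1.31 (*Fshr*) to 5.73, and *Fshr* and *Star* (1.83) were near the median of all windows, 1.51. Over 9 oocyte marker genes the mean level was 5.04 to 5.28 in cKO and 5.58 to 6.24 in WT, with 7 lower in cKO and 0 called (6 at an unadjusted *P* under 0.05 with limma). Over 8 granulosa cell markers the mean level was 4.19 to 4.79 in cKO and 3.26 to 3.62 in WT, with 7 higher in cKO. Of these 8, 4 had an unadjusted *P* under 0.05 and 1 was called with limma, *Foxl2* (adjusted *P* = 0.0415). The *Foxl2* call held in 1 of the 6 fits that leave out a library, and edgeR gave an adjusted *P* of 0.744. Of all genes, 25.5% had an unadjusted *P* under 0.05 with limma and 2.45% were called. The part of these marker shifts in the values of the members was not tested.

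H3K4me3 at the members differed little between genotypes. The mean over all 89 top windows was 4.62, 4.48 and 4.43 in the cKO libraries and 4.56, 4.50 and 4.29 in the WT libraries, so the genotypes overlapped. The cKO minus WT difference was higher than 0 at 50 of 89 members, against 51.6% of all genes, and its median was 0.08 against 0.04 over the top windows of all genes. On the reads recovered from the values most differences had the other sign, in members and in all genes. On log2(RPM + 0.5), 60 of 89 members were lower in cKO, against 58.6% of all genes, and by edgeR's log2 fold change 60 of 89 were lower (median -0.17), against 60.1% of all genes (median -0.11). Only *Psmd9* passed the test, with less H3K4me3 in cKO (limma across all windows, adjusted *P* under 0.05). Of all genes, 2.45% had a called top window, 1.28% with a gain and 1.18% with a loss, and of all windows 1.02% were called. The 1 called member in 89 is thus not above the background. Leaving out 1 library at a time turned the sign of the difference in 38 of 89 members and moved it by over 1.5 times in a further 37, so the order of single members is loose. Single differences below are in enrichment-normalized RPKM and are followed by their SE from limma, while values marked SD are spreads over libraries.

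**Figure D1:**
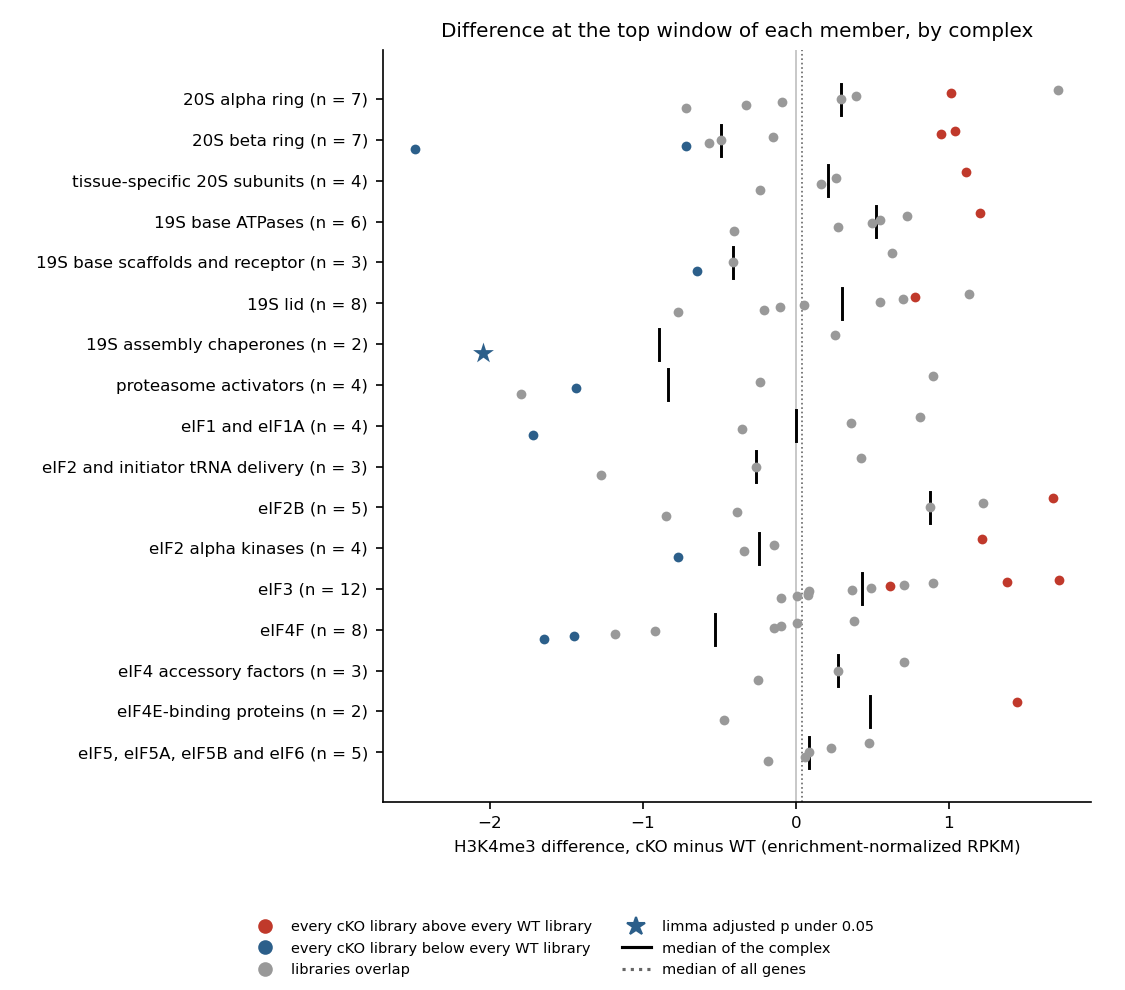
Difference in H3K4me3 (cKO minus WT, enrichment-normalized RPKM, horizontal axis) at the top window of each proteasome or initiation factor gene, 1 point per gene, in rows by complex. Red and blue points are genes with every cKO library above or below every WT library, the star is the only called gene, *Psmd9*, black bars are the medians of complexes, and points lie on both sides of 0 in each row.

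In 12 of 89 members every cKO library lay above every WT library, and in 9 of 89 every cKO library lay below. The background was 13.8% and 10.6% of all genes, and 25.5% of all genes had an unadjusted *P* under 0.05, compared with 20 of 89 members. The members above were *Psma6*, *Psmb3*, *Psmb4*, *Psmb8*, *Psmc3*, *Psmd6*, *Eif2b2*, *Eif2ak2*, *Eif3i*, *Eif3k*, *Eif3l* and *Eif4ebp2*. Those below were *Psmb5*, *Psmb6*, *Psmd4*, *Psmd9*, *Psme4*, *Eif1b*, *Eif2ak1*, *Eif4a1* and *Eif4g3*. Both shares were close to the background, and the 2 families contributed similarly, with 6 each above and 5 and 4 below.

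The members were marked more strongly than the average gene and were richer in CpG. The median level of their top windows was 4.79, compared with 4.26 over all genes, and the median CpG count was 103 per window against 70. The transcription start site (TSS) lay in the top window of 66 of 89 members, compared with 54.1% of all genes. At 19 of the other 23 members the TSS window carried the label of a neighbouring gene, as with *Eif5b* (labelled *Txndc9*), *Psmc2* (labelled *Dnajc2*) and *Psma5* (labelled *1700010K24Rik*). The table gives each window a single gene label, so the top window of these genes lay away from their start. *Psma8*, *Psmd14*, *Eif4g1* and *Eif4g3* instead had a window elsewhere in the gene above their own TSS window. These comparisons with all genes are descriptions without a test.

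Promoters are shown for the 5 members with the lowest limma adjusted *P*, because the results by gene turn on them, with CpG sites in capitals. Each is the 250 bases before the RefSeq start (GRCm38.p6), 5′ to 3′ in the direction of the gene. They lie at chr5:123227940-123228189 on the plus strand (*Psmd9*), chr14:54617996-54618245 on the minus strand (*Psmb5*), chr11:69672424-69672673 on the minus strand (*Eif4a1*), chr15:79074973-79075222 on the plus strand (*Eif3l*) and chr7:28981889-28982138 on the minus strand (*Eif3k*). All lie inside the top window of their gene except that of *Eif3l*, which begins just before it.
Psmd9: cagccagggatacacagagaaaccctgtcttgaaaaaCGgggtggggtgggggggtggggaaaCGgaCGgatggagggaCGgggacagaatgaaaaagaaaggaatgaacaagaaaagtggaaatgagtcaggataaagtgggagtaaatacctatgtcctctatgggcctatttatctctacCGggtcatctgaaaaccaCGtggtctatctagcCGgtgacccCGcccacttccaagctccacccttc
Psmb5: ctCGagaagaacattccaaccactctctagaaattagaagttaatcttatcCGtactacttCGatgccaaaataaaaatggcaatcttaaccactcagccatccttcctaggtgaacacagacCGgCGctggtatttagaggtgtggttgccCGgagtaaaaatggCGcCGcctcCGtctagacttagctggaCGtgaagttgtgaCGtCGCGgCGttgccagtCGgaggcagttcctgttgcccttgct
Eif4a1: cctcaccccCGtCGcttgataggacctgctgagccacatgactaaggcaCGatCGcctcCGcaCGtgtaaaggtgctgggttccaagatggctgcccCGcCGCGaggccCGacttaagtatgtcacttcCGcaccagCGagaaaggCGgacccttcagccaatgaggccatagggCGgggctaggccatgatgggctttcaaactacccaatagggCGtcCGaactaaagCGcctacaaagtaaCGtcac
Eif3l: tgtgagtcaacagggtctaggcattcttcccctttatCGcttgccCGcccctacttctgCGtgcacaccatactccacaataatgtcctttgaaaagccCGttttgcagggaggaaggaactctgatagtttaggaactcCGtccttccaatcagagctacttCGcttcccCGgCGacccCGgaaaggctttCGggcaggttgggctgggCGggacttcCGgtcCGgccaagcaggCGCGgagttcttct
Eif3k: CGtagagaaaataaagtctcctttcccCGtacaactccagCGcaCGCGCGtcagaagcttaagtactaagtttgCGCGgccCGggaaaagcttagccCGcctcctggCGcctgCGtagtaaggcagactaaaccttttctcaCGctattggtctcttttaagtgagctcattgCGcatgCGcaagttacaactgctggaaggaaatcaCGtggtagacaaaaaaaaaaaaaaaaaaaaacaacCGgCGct

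The promoter of *Psmd9*, whose window lost H3K4me3, held 8 CpG sites, and the others held 15 (*Psmb5* and *Eif3l*) or 18 (*Eif4a1* and *Eif3k*). RefSeq promoters of 300 bases were matched for 71 of 89 members. Their median CpG count was 19 in the 37 proteasome promoters and 23 in the 46 initiation factor promoters, compared with 7 over all 32851 promoters. GGGCGG, the letters of a GC box, was found on either strand in 59.46% and 67.39% of them, compared with 35.66% of all promoters. TATAAA was found in 10.81% and 6.522%, compared with 13.62%, and CCAAT in 35.14% and 30.43%, compared with 37.41%. TGACNNNGC, the core letters of the antioxidant response element to which the proteasome regulator NRF1 binds, was present in 16.22% and 15.22%, compared with 12.39%. It was among the bases of both *Psmd9* and *Psmb5* printed above, starting 31 and 47 bases before the start. GGGCGG holds a CpG itself and so overlaps the CpG count, and these shares are counts of letters on both strands.

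H3K4me3 was highest at the TSS window in both families and genotypes. In proteasome genes the TSS window averaged 5.20, 4.38 and 4.83 in cKO and 4.99, 4.92 and 4.64 in WT, and in initiation factor genes 5.44, 5.27 and 5.0 in cKO and 5.29, 5.01 and 4.84 in WT. The level dropped within 10 kb downstream to means of 1.78 (cKO) and 1.55 (WT) in proteasome genes and 1.99 and 1.80 in initiation factor genes. At that distance every cKO library lay above every WT library, and cKO replicates 3 and 4, the libraries of lowest enrichment, were the highest in both families. The part of enrichment in this excess was not tested. Over all 489 windows labelled with a member the cKO libraries averaged 2.11, 2.32 and 2.14 and the WT libraries 2.03, 2.05 and 1.94, without overlap, whereas over all windows of the genome the cKO mean was 1.94 and the WT mean 2.02, with overlap. Of these 489 windows only the window of *Psmd9* was called, against 1.02% of all windows. A window of *Eif3h*, 30 kb downstream of its start (chr15:51835001-51840000), had 1.56, 2.95 and 2.58 in cKO and 1.12, 0.937 and 1.17 in WT and missed the threshold (limma adjusted *P* = 0.169). It passed with an intensity trend in the fit (0.0363) and in 1 of the 6 fits that leave out a library (0.0402).

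**Figure D2:**
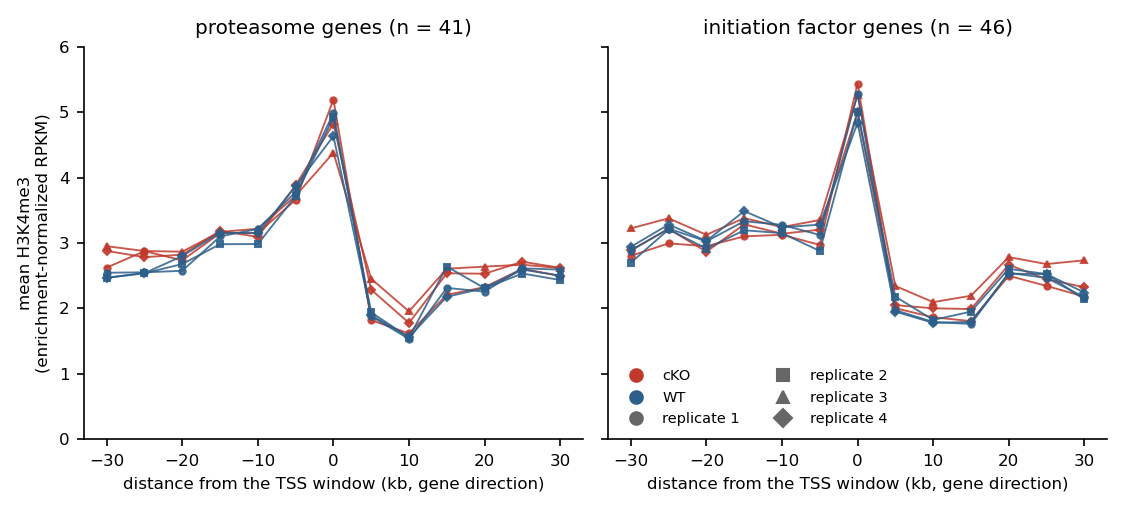
Mean H3K4me3 (enrichment-normalized RPKM, vertical axis) in 5 kb windows from 30 kb before to 30 kb after the window with the TSS, in the direction of the gene, with 1 line per library (red cKO, blue WT). All 6 libraries peak at the TSS window, between 4.38 and 5.44, and fall to about 2 directly downstream.

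Most top windows did not exceed the 95th percentile of their library in either genotype. Those of 37, 27 and 29 members did in the cKO libraries and of 31, 31 and 24 in the WT libraries. The run of adjoining windows above it was counted from the top window, as 0 where the top window was not above. It averaged 0.472 ± 0.0515 in cKO and 0.457 ± 0.0748 in WT (SD, n = 3 libraries). This mean therefore depends mainly on how many top windows passed, and 38 of 89 members passed in no library. A top window above the 95th percentile in all 6 libraries was found for 8 members. The highest level among proteasome genes was at *Psma6*, an alpha ring subunit, with a mean of 7.87, and among initiation factor genes at *Eif6*, which keeps the large ribosomal subunit from joining early, with 7.20. The lowest were the top windows of *Psmc2* (1.24) and *Eif5b* (1.41), whose TSS windows bore another gene's label and had means of 4.54 and 6.45.

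*Psmd9* encodes a chaperone that helps assemble the 19S base. Its top window, chr5:123225001-123230000, holds the TSS and had values of 5.44, 5.32 and 5.28 in cKO and 7.40, 7.46 and 7.31 in WT. The 3 libraries of each genotype lay close together and the genotypes did not overlap. H3K4me3 fell by 2.04 ± 0.318 (SE, limma adjusted *P* = 0.028). Leaving out 1 library at a time, the difference stayed between -2.09 and -2.01. The call held only without cKO replicate 1, where 6.51% of all genes were called (adjusted *P* 0.0248 to 0.12 over the 6 fits). In the other 5 fits between 0 and 0.827% of all genes were called. On the reads recovered from the values, edgeR gave a log2 fold change of -0.72 with an adjusted *P* of 0.631, where the median over all genes was -0.11 and 1.18% of all genes were called. *Psmd5*, the other chaperone measured, had 6.39, 6.77 and 5.33 in cKO and 6.15, 5.22 and 6.35 in WT, with overlap.

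The TSS window of *Psmd9* lies on chromosome 5 with its TSS 59.6 kb beyond the end of *Setd1b*. The annotated *Psmd9* gene, with all its transcripts, begins 0.784 kb beyond that end. In the windows from *Hpd* to the one before the *Psmd9* TSS window, none was called. On the far side lay a run of lower values over *Wdr66*, 30 to 100 kb from the *Psmd9* window. Of its 15 windows 14 were lower in cKO, against 306506 of all 544879 windows. In 11 of the 15 every cKO library lay below every WT library, against 9.95% of all windows. The 15 windows adjoin each other and are not separate observations. Those at 70 and 75 kb were called, with differences of -2.23 and -2.09 (limma adjusted *P* = 0.033 and 0.048). The 3 windows labelled *Gm15860* beyond it were higher in cKO, and the one at 105 kb was called (1.96, adjusted *P* = 0.038). The *Psmd9* window did not adjoin the *Wdr66* run, since the 5 *Psmd9* windows between them, of which the first differed by -0.13, all overlapped between genotypes.

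**Figure D3:**
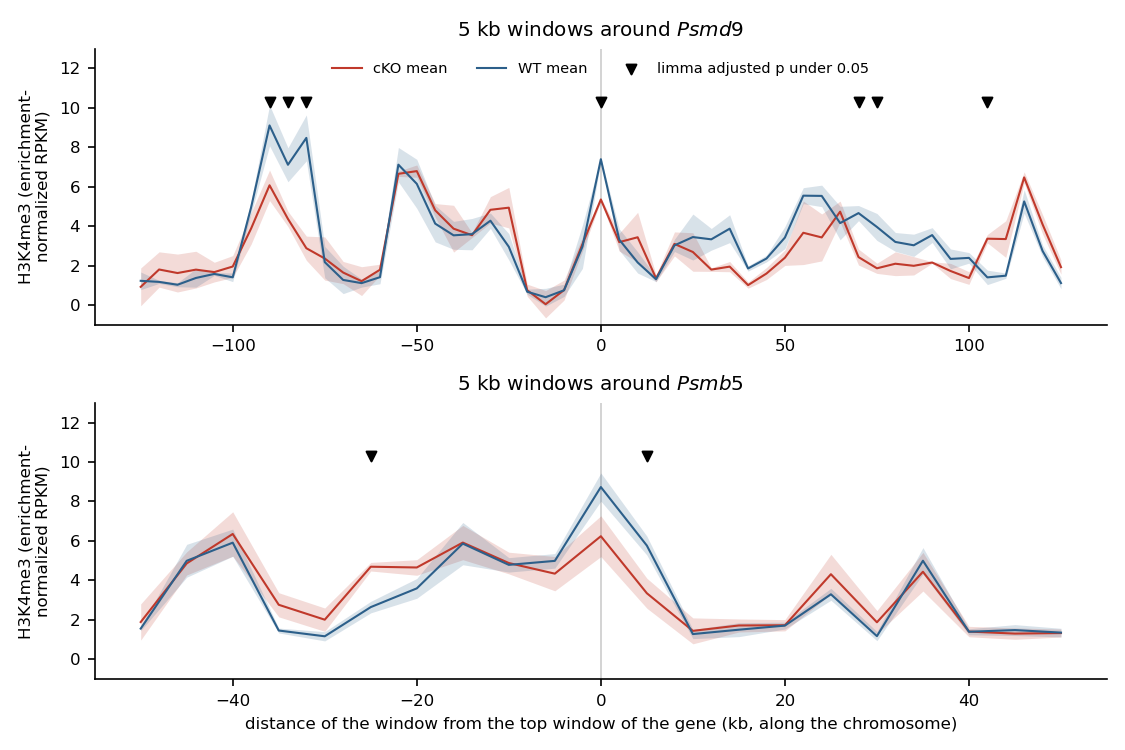
H3K4me3 (enrichment-normalized RPKM, vertical axis) in 5 kb windows by distance from the top windows of *Psmd9* and *Psmb5*, as mean (line) and SD (shading) of 3 cKO (red) and 3 WT (blue) libraries, with triangles on windows that passed limma. The group of triangles at 80 to 90 kb before *Psmd9* lies around the start of *Setd1b*, and the window 5 kb beyond *Psmb5* passed while that of *Psmb5* itself did not.

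The core barrel of the proteasome gave 6 of 14 subunits with a positive difference and 0 called. Of the beta ring subunits, whose inward faces hold the catalytic sites, *Psmb5* had the largest difference of all members. This subunit carries the chymotrypsin-like activity, and its TSS window chr14:54615001-54620000 had 6.28, 5.19 and 7.26 in cKO and 9.34, 8.91 and 7.94 in WT. All cKO values were below all WT values, yet the difference of -2.49 ± 0.554 missed the threshold (SE, limma adjusted *P* = 0.067). With an intensity trend in the limma fit it passed (adjusted *P* = 0.008), where 4.61% of all genes were called. The adjoining unlabelled window, which lies upstream of the gene, fell from 5.77 to 3.35 (adjusted *P* = 0.043). *Psmb11*, which encodes the thymus version of this subunit and labels the window after that, had low and overlapping values of 0.965 to 2.19.

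The other 2 catalytic subunits moved less. *Psmb6* had 2.95, 2.95 and 2.96 in cKO and 3.58, 4.34 and 3.09 in WT (difference -0.718 ± 0.39), without overlap, and *Psmb7* had 4.89, 4.00 and 4.89 against 5.05, 4.44 and 4.74, with overlap. *Psmb4*, a structural beta subunit, differed in the other direction at 7.44, 7.17 and 6.82 in cKO and 6.77, 5.90 and 5.64 in WT. The difference of 1.04 ± 0.398 did not pass (limma adjusted *P* = 0.25).

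In the alpha ring, which gates entry to the barrel, *Psma1* had the largest positive difference, 1.71 ± 0.562 (limma adjusted *P* = 0.18). Its libraries overlapped, at 6.50, 6.51 and 4.60 in cKO and 3.69, 4.93 and 3.87 in WT. *Psma6* had 8.72, 7.70 and 8.70 in cKO and 7.09, 7.55 and 7.43 in WT, without overlap (1.01 ± 0.39, adjusted *P* = 0.252). At top windows *Psma7* had the largest negative difference, -0.717 ± 0.58, which was -0.15 without WT replicate 1. The TSS window of *Psma5*, labelled *1700010K24Rik*, had 3.72, 3.34 and 4.70 in cKO and 5.68, 5.22 and 6.20 in WT, without overlap (-1.78 ± 0.443, limma adjusted *P* = 0.089), while its top window differed by 0.396. The alpha ring as a whole averaged 4.07 ± 0.206 in cKO and 3.75 ± 0.353 in WT at top windows, and 4.72 and 4.77 at TSS windows (SD, n = 3), so its small difference depended on the window. On log2(RPM + 0.5), from recovered reads scaled to the library total, the alpha ring differed by 0.04. The beta ring averaged 5.02 ± 0.303 in cKO and 5.37 ± 0.417 in WT, with overlap.

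Tissue-specific subunits gave 0 calls. *Psmb8*, the immunoproteasome counterpart of *Psmb5*, had 3.45, 4.00 and 3.93 in cKO and 2.54, 2.59 and 2.91 in WT. The groups did not overlap, and the difference of 1.11 ± 0.342 had a limma adjusted *P* of 0.153. This window does not hold the TSS of *Psmb8*. Its TSS window, labelled *Tap1*, had 5.39, 3.47 and 4.17 in cKO and 3.06, 4.34 and 3.06 in WT, with overlap (0.857 ± 0.543, adjusted *P* = 0.491). *Psmb9*, its partner in the immunoproteasome, overlapped (0.262 ± 0.554). *Psma8*, the testis form of an alpha subunit, was highest in a CpG-poor window (18 CpG sites) away from its TSS, with 3.47 to 4.94 in cKO and 4.34 to 5.16 in WT.

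**Figure D4:**
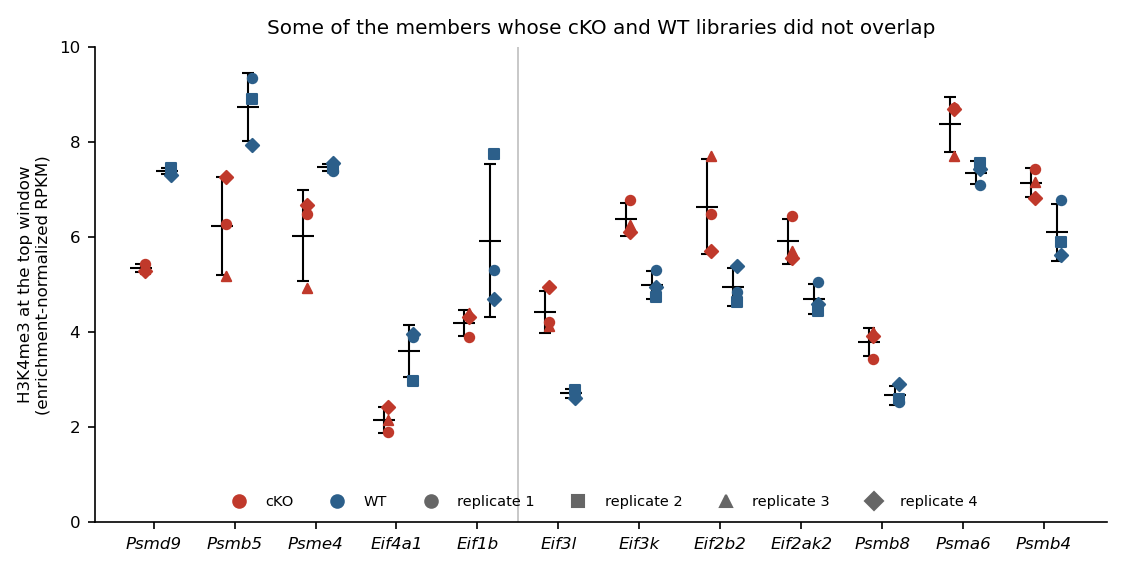
H3K4me3 at the top window (enrichment-normalized RPKM, vertical axis) of 12 members without overlap between genotypes, 5 lower in cKO to the left of the grey line and 7 higher in cKO to the right. Coloured points are libraries (symbol by replicate), and black bars show the mean and SD of 3 libraries per genotype. *Psmd9* is the gene whose points lie closest together, and *Psmb5* has the largest distance between means, 6.24 against 8.73.

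The 19S regulatory particle recognises, deubiquitinates and unfolds substrates. Its base ATPases, which do the unfolding, averaged 3.88, 3.58 and 4.27 in cKO and 3.60, 3.35 and 3.35 in WT at top windows, with a positive difference in 5 of 6. At TSS windows 4 of 6 had a positive difference, with a median of 0.14 and a mean of -0.06, and *Psmc5* was lowest at -1.30. *Psmc3* had 3.78, 4.66 and 5.62 in cKO and 3.48, 3.37 and 3.60 in WT in a window away from its start (1.20 ± 0.46, limma adjusted *P* = 0.249), and its TSS window differed by 0.03. At top windows *Psmc6* was the only one with a negative difference, -0.403 ± 0.357.

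Among the base scaffold and receptor subunits, the scaffold *Psmd1* differed by 0.627 ± 0.437. The ubiquitin receptor *Psmd4* differed by -0.644 ± 0.395, with 4.72, 4.66 and 3.98 in cKO below 5.68, 4.73 and 4.89 in WT. The lid, which holds the deubiquitinase *Psmd14*, averaged 4.29 ± 0.168 in cKO and 4.02 ± 0.0790 in WT at top windows and 4.96 ± 0.151 and 4.36 ± 0.194 at TSS windows (SD, n = 3). At TSS windows every cKO library lay above every WT library and 6 of 8 members had a positive difference, though only *Psmd13*, whose TSS window is labelled *Sirt3*, had an unadjusted *P* under 0.05 with limma (1.67 ± 0.442), and 0 were called. On log2(RPM + 0.5) the lid differed by -0.01 at top windows. At its TSS windows the median difference was 0.025 on that scale and -0.015 in edgeR's log2 fold change, with 4 of 8 members lower on each. At top windows the structural lid subunit *Psmd3* had the largest difference, 1.13 ± 0.637, which was 0.487 without cKO replicate 3. *Psmd14* itself differed by -0.772 ± 0.5 in an intragenic window and by 0.945 at its TSS window.

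The proteasome activators open the barrel without ATP. *Psme4*, which encodes PA200, an activator linked to histone degradation in germ cells, had 6.50, 4.93 and 6.68 in cKO and 7.40, 7.46 and 7.55 in WT. Every cKO library was lower, with a difference of -1.44 ± 0.471 (limma adjusted *P* = 0.18) that was -0.883 without cKO replicate 3. *Psme3*, which encodes the nuclear PA28 gamma, had 5.17, 3.74 and 5.47 in cKO and 7.04, 7.46 and 5.28 in WT. Its libraries overlapped and its difference was -1.80 ± 0.622 (adjusted *P* = 0.203). *Psme2*, a subunit of the interferon-inducible activator with a near-identical copy elsewhere, *Psme2b*, differed in the other direction by 0.898 ± 0.448.

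Of the initiation factors, eIF3 had the most even sign of difference in enrichment-normalized RPKM. This large complex holds the small ribosomal subunit and recruits mRNA. A positive difference was found in 11 of its 12 labelled subunits, against 51.6% of all genes, although 0 were called. An unadjusted *P* under 0.05 with limma was found in 2 of 12, against 25.5% of all genes. Over the 12 top windows the cKO libraries averaged 4.93, 4.74 and 4.76 and the WT libraries 4.50, 4.16 and 4.18. The genotypes did not overlap, at top windows or at TSS windows. The mean difference was 0.528 in enrichment-normalized RPKM, against 0.035 over all genes. On log2(RPM + 0.5) it was 0.02, against -0.06 over all genes, and the median log2 fold change in edgeR was -0.02, against -0.11 over all genes. By count, 6 of 12 subunits were lower in cKO on log2(RPM + 0.5) and 7 of 12 in edgeR. On the read-based scales the values were thus near 0 and close to those of all genes.

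*Eif3l*, a subunit of eIF3, had the largest positive difference of all members. Its TSS window chr15:79075001-79080000 had 4.22, 4.13 and 4.94 in cKO and 2.75, 2.79 and 2.61 in WT. The groups were well apart, and the difference of 1.72 ± 0.356 missed the threshold (limma adjusted *P* = 0.055). It passed with a mean of at least 1 (0.0456), with chromosomes 1 to 19 only (0.04996), without cKO replicate 1 (0.0406) and with a replicate block (0.00297), and missed it in the other limma fits and with edgeR. *Eif3k*, whose product binds that of *Eif3l*, had 6.77, 6.25 and 6.10 in cKO and 5.31, 4.73 and 4.95 in WT at chr7:28980001-28985000. Its difference was 1.38 ± 0.357 (adjusted *P* = 0.099). *Eif3i* also lay wholly above WT (0.617 ± 0.367). *Eif3c* was the only one with a negative difference, -0.0969 ± 0.408, and *Eif3b*, *Eif3d*, *Eif3g* and *Eif3h* differed by less than 0.1.

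**Figure D5:**
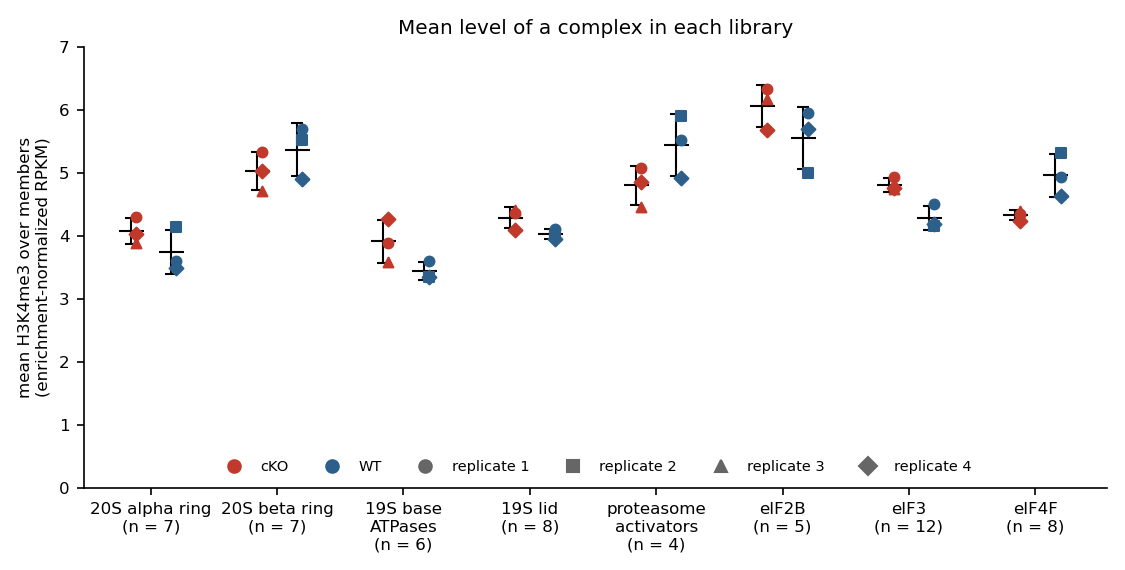
Mean H3K4me3 over the top windows of a complex (enrichment-normalized RPKM, vertical axis) in each library, for 8 complexes, with the mean and SD of 3 libraries per genotype in black. Libraries of cKO (red) and WT (blue) are apart in eIF3, where cKO is higher, and in the name-based eIF4F group, where cKO is lower. They overlap in the other complexes shown, and on log2(RPM + 0.5) the difference of eIF3 was 0.02.

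The group named for eIF4F, the complex that binds the mRNA cap and unwinds the leader, differed in the other direction. It was sorted by gene name and includes the paralogues *Eif4e1b*, *Eif4e2* and *Eif4g2*, so it is wider than the complex. Its 8 genes averaged 4.35, 4.40 and 4.24 in cKO and 4.94, 5.31 and 4.63 in WT, with 6 of 8 lower in cKO, and the direction was the same on log2(RPM + 0.5) (-0.34). At TSS windows the genotypes overlapped and the mean difference was -0.27, so part of it came from windows within genes. *Eif4a1*, the main helicase, had 1.89, 2.15 and 2.43 in cKO and 3.90, 2.98 and 3.96 in WT at its TSS window chr11:69670001-69675000. The groups did not overlap, and the difference of -1.45 ± 0.385 had a limma adjusted *P* of 0.106. *Eif4a2*, the paralogous helicase, had 5.55, 4.40 and 4.85 against 6.25, 7.07 and 5.04, with a difference of -1.19 ± 0.53.

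The scaffold genes *Eif4g1* and *Eif4g3* had their strongest windows inside the gene. *Eif4g3* had 6.83, 5.85 and 5.81 in cKO and 7.30, 9.11 and 7.01 in WT in such a window (-1.64 ± 0.559, limma adjusted *P* = 0.196). Its TSS window differed by 1.09 in the other direction. *Eif4g1* differed by 0.377 ± 0.394 in its top window and by -0.33 at its TSS. The cap-binding protein gene *Eif4e* had 5.78, 5.72 and 4.89 in cKO and 6.41, 5.31 and 4.65 in WT, with a difference of 0.00623. *Eif4e1b*, the germline cap-binding form, had 2.95, 3.21 and 3.11 in cKO and 3.16, 5.02 and 3.84 in WT, with a single cKO library above the lowest WT library (-0.919 ± 0.467).

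The other eIF4 genes gave 0 calls. The helicase cofactor *Eif4b* differed by 0.706 ± 0.64 and *Eif4a3*, a helicase of the exon junction complex, by -0.246 ± 0.43. *Eif4ebp2*, which encodes a repressor that competes for *Eif4e* protein, had 5.61, 4.53 and 4.41 in cKO and 4.00, 2.2 and 4.02 in WT, without overlap (1.44 ± 0.547, limma adjusted *P* = 0.245). *Eif4ebp1* differed by -0.473 ± 0.438. *Eif4enif1*, which encodes the 4E transporter found in oocyte RNA granules, labels no window. Its TSS window, labelled *Drg1*, had 5.11, 6.64 and 6.39 in cKO and 6.93, 9.21 and 6.20 in WT (-1.40 ± 0.714).

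eIF2 carries the initiator tRNA and eIF2B reloads it with GTP. *Eif2b2*, a regulatory eIF2B subunit, had 6.50, 7.70 and 5.71 in cKO and 4.84, 4.63 and 5.40 in WT at its TSS window. The groups did not overlap, and the difference was 1.68 ± 0.501 (limma adjusted *P* = 0.143). *Eif2b4* had the largest negative difference in eIF2B, -0.847 ± 0.529, which was -0.375 without cKO replicate 4. The 5 genes averaged 6.06 ± 0.336 in cKO and 5.55 ± 0.490 in WT (SD, n = 3), with overlap, and differed by -0.07 on log2(RPM + 0.5). *Eif2s1*, the eIF2 subunit that is phosphorylated under stress, was read in a weakly marked window away from its start (0.425 ± 0.508). Its TSS window, labelled *Atp6v1d*, had 6.89, 8.23 and 5.62 in cKO and 6.56, 5.70 and 4.50 in WT, with overlap (1.32 ± 0.681, limma adjusted *P* = 0.41). Over the 3 genes of eIF2 and initiator tRNA delivery the mean difference was -0.37 at top windows and 0.27 at TSS windows. *Eif2d*, a factor that delivers tRNA outside the main pathway, differed by -1.27 ± 0.674.

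Kinases of eIF2 differed in both directions. *Eif2ak2*, which encodes the double-stranded RNA sensor PKR, had 6.44, 5.72 and 5.57 in cKO and 5.05, 4.44 and 4.59 in WT, without overlap (1.22 ± 0.376, limma adjusted *P* = 0.156). *Eif2ak1*, which encodes the haem-regulated kinase, had 5.33, 4.93 and 5.04 in cKO and 5.47, 6.68 and 5.46 in WT, also without overlap (-0.767 ± 0.412, adjusted *P* = 0.432). *Eif2ak3* and *Eif2ak4* overlapped.

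The remaining groups were eIF1 with eIF1A, and eIF5 with eIF5A, eIF5B and eIF6. *Eif1b*, a paralogue of the start codon selection factor eIF1, had 3.89, 4.40 and 4.31 in cKO and 5.31, 7.75 and 4.71 in WT. Its groups did not overlap, and the difference of -1.72 ± 0.67 missed the threshold (limma adjusted *P* = 0.259), with WT replicate 2 well above the other WT libraries. *Eif1ad* differed by 0.813 ± 0.445. *Eif5a2*, *Eif5b* and *Eif6* differed by 0.476, -0.18 and 0.0854, each within its SE. The 2 genes that match by name alone were the meiotic recombination gene *Psmc3ip* (0.177 ± 0.433) and the pseudogene *Eif3s6-ps2* (-0.195 ± 0.367).

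Genes that work with these complexes but carry other names gave 0 calls in the main limma fit. Of all genes, 51.6% had a positive difference, 25.5% had an unadjusted *P* under 0.05 with limma and 2.45% were called. Of 15 proteasome partners found, 8 had a positive difference, 6 had an unadjusted *P* under 0.05 and 0 were called with limma (adjusted *P*). *Psmg2*, a chaperone of the alpha ring, had the lowest adjusted *P*, with 3.04 in cKO and 1.08 in WT (limma 0.067). It passed with edgeR (adjusted *P* = 0.000603), with an intensity trend in limma (0.00544) and in 1 of the 6 fits without a library (0.0279). *Nfe2l1*, which encodes the proteasome regulator NRF1, differed by 0.253. Of 19 partners of translation initiation, 9 had a positive difference, 5 had an unadjusted *P* under 0.05 and 0 were called, although *Mtor*, the growth-control kinase, passed in 1 of the 6 fits without a library (0.0284). *Pabpc1l*, the embryonic poly(A)-binding protein of oocytes, had 2.92 in cKO and 4.65 in WT (limma adjusted *P* = 0.129). *Ppp1r15b*, which directs the removal of phosphate from eIF2, had 4.49 and 6.62 (adjusted *P* = 0.096).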

How the data were processed

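H3K4me3 ULI-nChIP-seq values and input were taken from 6 H3K4me3 and 4 input libraries, grouped by their labels. Per the study's methods, the authors trimmed reads (Trim Galore 0.4.2), mapped them with Bowtie2 2.2.9 to GRCm38, kept a MAPQ of at least 20 and used 5 kb windows, leaving out windows with high input and 1 poorly enriched library per genotype. H3K4me3 was deposited as enrichment-normalized RPKM, treated here as a score on a linear scale. Input was deposited as a signal, the reads of a window scaled to library size. Steps between values gave whole reads for 100% of values (tolerance 0.1 step), and depth was 10856015 to 32775874 reads in windows.

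The main test was limma 3.58.1 under R 4.3.3 (genotype only, no intensity trend, values as deposited, two-sided, Benjamini-Hochberg over all windows). The test, and edgeR 4.0.16 (quasi-likelihood, TMM, at least 10 reads), were checked on simulated data. The TSS was that of the principal transcripts of GENCODE M21. Members and lists were chosen with earlier results of these data known. Named genes were the called members, the largest gain and loss in each complex of 3 or more and among members without overlap, the highest and lowest of each family, and fixed genes (*Psma8*, *Psmb8*, *Psmb9*, *Psmb11*, *Psmc3ip*, *Psme4*, *Eif4e*, *Eif4e1b*, *Eif4enif1*, *Nfe2l1*, *Pabpc1l*). Other genes were named after their values were seen. Alternatives were log2(value + 1), log2(RPM + 0.5), an intensity trend, quantile normalization, a mean of at least 1, chromosomes 1 to 19 only, a replicate block, leaving out each library, edgeR, the TSS window, leaving out name-only members and a 99th percentile for extent. Gene expression was not analysed here.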

Additional observations from a re-analysis of the deposited data

How the results depend on the processing

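Of 89 members, *Psmd9* alone passed with limma. The count was 0 with log2(value + 1) (4 at an unadjusted P under 0.05) and 0 with quantile normalization (14), where 0% of all genes were called. It was 0 with edgeR (1), against 1.18% of all genes. It was 2 with an intensity trend (*Psmd9*, *Psmb5*, 4.61% of all genes), 2 with a mean of at least 1 (3.46%) and 2 with chromosomes 1 to 19 only (2.73%), *Psmd9* and *Eif3l* in both. Leaving out 1 library gave 0 to 2, with 2 (*Psmd9*, *Eif3l*) without cKO replicate 1 and 0 without any other, where 0% to 0.827% of all genes were called. TSS windows and leaving out name-only members gave 1. With a replicate block it was 7 (*Psma1*, *Psma6*, *Psmb5*, *Psmc4*, *Psmd9*, *Eif3l*, *Eif4a1*), where 13.7% of all genes were called. Replicate numbers 1 and 4 are shared between genotypes. Deviations of same-numbered libraries correlated by 0.319 and 0.019, against -0.036 and -0.14 with the other number. Libraries numbered 1 were also alike in enrichment (13.5 and 14.3). The labels do not say what a number marks and only 2 are shared, so they were not treated as pairs. The cause of these changes was not tested. Over initiation factors the mean difference of 0.09 became -0.11 on log2(RPM + 0.5), where all genes had -0.06. The shift of the median over all genes was -0.11 in edgeR, and edgeR signs below are relative to it.

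Members that were not called changed sign, among them *Eif4g3* (-1.64) and *Psmd14* (-0.77), which were not near 0. With the replicate block this gave *Psma8* 0.081, *Psmd14* 0.024, *Eif2s1* -0.29, *Eif3c* 0.30, *Eif4g1* -0.063, *Eif5b* 0.22 and *Eif4e* -0.19. With edgeR it gave *Eif4g1* -0.17, *Eif5b* 0.11, *Eif6* -0.20, *Psmc3ip* -0.19 and *Eif4e* -0.24, and at TSS windows *Psmd14* 0.95, *Eif4g1* -0.33 and *Eif4g3* 1.09. Leaving out 1 library, differences ranged from -0.50 to 0.24 for *Psma8*, -0.17 to 0.78 for *Eif2s1*, -0.39 to 0.29 for *Eif3c*, -0.58 to 0.11 for *Eif4a3*, -0.0012 to 0.88 for *Eif5a2*, -0.33 to 0.062 for *Eif5b*, -0.29 to 0.31 for *Eif6*, -0.43 to 0.62 for *Psmb9*, -0.21 to 0.40 for *Psmb11*, -0.27 to 0.52 for *Psmc3ip* and -0.40 to 0.48 for *Eif4e*. Windows held 1 to 255 reads, which limits how small a difference could be told from 0.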
